A study of Mus musculus with 6 samples.

Results

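The canonical astrocyte genes are a set of 8 listed genes that mark astrocytes or carry out their best known functions, and 7 of the 8 were among the 770 genes measured here. They were Aldh1l1, Slc1a3, Gja1, Kcnj10, Sox9, S100b and Agt, and Aqp4 was not analysed here. Whole-brain RNA came from 3 SOD1-G85R transgenic samples and 3 wild-type (WT) samples, every sample being C57BL/6 in background and labelled day 10. The transgene carries a form of the enzyme superoxide dismutase 1 that is tied to amyotrophic lateral sclerosis in people, and the comparison asked how expression in brain differed in mice carrying it. The day from which age was counted, the promoter and line of the transgene, and whether each replicate was a separate animal are not stated in the labels. The p-values therefore cover the spread between these samples, part of which may be technical. Each group held samples with and without signal of the Y-linked gene Uty (values below), so its replicates were not all from the same animal. The RNA was counted with NanoString probes, colour-coded molecules that hybridise to RNA without amplification, and each value is a normalized count. Sod1 itself was not analysed here, which left the genotype labels unchecked.

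Astrocytes are glial cells that clear synaptic glutamate, buffer potassium and water, and couple to each other through gap junctions. Their fate is set by transcription factors such as SOX9, and mature astrocytes are recognised by cytosolic proteins such as ALDH1L1 and S100B. After injury or inflammation astrocytes become reactive and switch on a further set of genes, which is distinct from these identity genes. In a whole-brain homogenate, fewer cells of a type and less RNA per cell cannot be told apart.

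All 7 genes were far above the lowest value of every sample, and all 7 passed the filter on low values (above 20 in at least 3 of the 6 samples). The lowest member value, that of Aldh1l1 in SOD1-G85R replicate 1, corresponded to about 296 probe counts, for which counting alone gives an SD of 5.81%. Implied total counts ran from 468718 to 1022645 in SOD1-G85R samples and from 689749 to 970301 in WT samples. SOD1-G85R replicate 2 stood apart, with log2 correlations across genes of 0.824 to 0.834 to the other samples, against 0.956 to 0.984 among the other 5, and genes are not independent replicates for such values. Results are therefore given with and without it.

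No canonical astrocyte gene passed the test between genotypes after adjustment over the panel. By limma 0 of 7 members and 0 of 712 genes tested were called at an adjusted p of 0.05, a panel background of 0.0%. At an unadjusted p of 0.05, 1 of the 7, S100b, was lower in SOD1-G85R, against 33 of 712 genes lower (4.63% of the panel) and 83 higher (11.7%), or 16.3% in either direction. The groups overlapped in all 7 members, whereas they did not overlap in 192 of the 712 genes, or 27.0%. The log2 fold change (SOD1-G85R minus WT, on log2(value + 1)) was positive in 3 members and negative in 4 (62.6% and 37.4% of the panel), with a median of -0.02, beside a median of 0.15 over all genes tested. For each of the 7 the difference between group means was smaller in size than the range of the WT samples alone. For S100b this was narrow, at -0.73 against a WT range of 0.78 on the log2 scale. No share of the panel is given for this count.

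**Figure D1:**
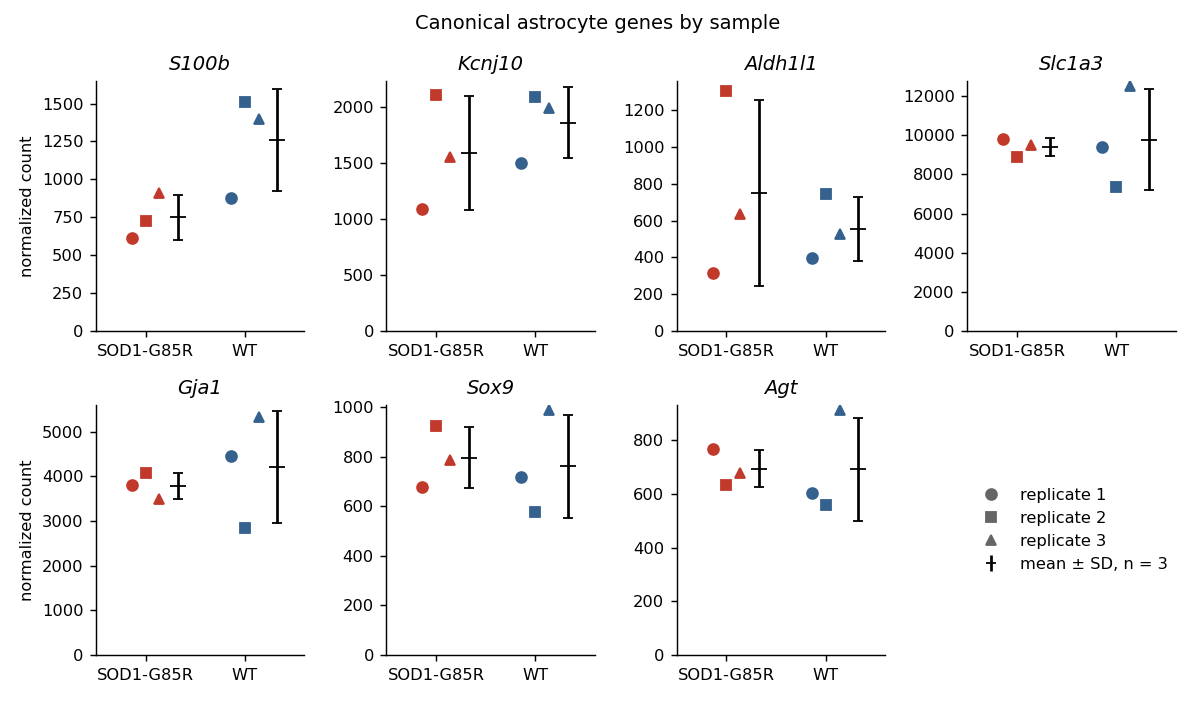
Normalized count of each canonical astrocyte gene in every sample, SOD1-G85R in red left of WT in blue, with a marker shape per replicate and the mean ± SD (n = 3) in black. The groups overlap in all 7 panels, and S100b is the gene whose SOD1-G85R samples (612 to 908) lie mostly below the WT samples (878 to 1508).

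Across the 6 samples the 7 genes fell into 2 orders. Slc1a3, Gja1, Sox9 and Agt were each lowest in WT replicate 2 and highest in WT replicate 3, an order that 4.63% of the panel had. Aldh1l1, Kcnj10 and S100b were each lowest in SOD1-G85R replicate 1, as were 27.5% of the genes tested. The first order depends on the scaling: it held in the same 4 genes with samples centred on housekeeping genes (4.49% of the panel), in Slc1a3 and Sox9 after quantile normalization (1.26%) and in Sox9 alone with samples centred on their medians (0.702%). The second held in all 3 genes with housekeeping centring (25.8% of the panel), and in Aldh1l1 and Kcnj10 with median centring (6.32%) and after quantile normalization (10.1%). Both patterns were picked out after the values were seen. The samples also differed in the Y-linked gene Uty, which was at 7.85, 466 and 10.2 in SOD1-G85R replicates 1, 2 and 3 and at 684, 478 and 11.2 in WT replicates 1, 2 and 3. WT replicate 3, highest for 4 members, was thus the WT sample without Uty signal. SOD1-G85R replicate 2, the sample that stood apart, was the only SOD1-G85R sample with it. Sex, as read from Uty, was therefore uneven between the genotypes, and the model had no term for it. The part of this difference in the patterns and in the genotype comparison was not tested.

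**Figure D2:**
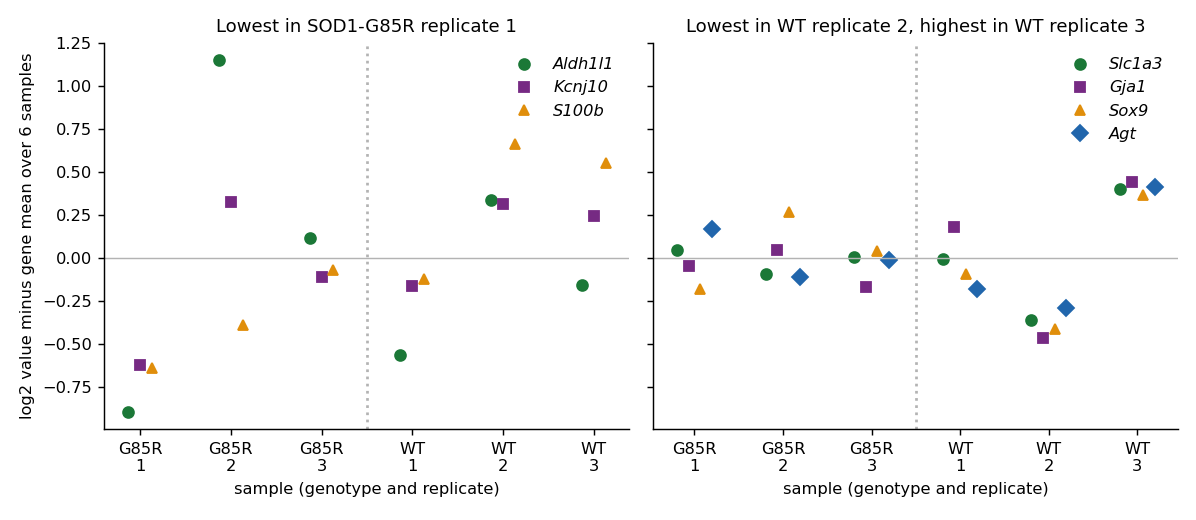
Log2 value of each gene minus its own mean over the 6 samples, by genotype and replicate, with SOD1-G85R left of WT. In the left panel the 3 genes are lowest in SOD1-G85R replicate 1, with Aldh1l1 at -0.89, and in the right panel the 4 genes lie together in WT replicate 2 (-0.46 to -0.29) and in WT replicate 3 (0.37 to 0.44).

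The sequence just upstream of the transcription start is shown for a pair of genes from each pattern, S100b and Kcnj10 from the genes lowest in SOD1-G85R replicate 1 and Slc1a3 and Agt from the others. Each line holds the 250 bases before the RefSeq start, 5′ to 3′ on the gene's own strand, in the GRCm38.p6 build. They lie at chr10:76253586-76253835 (plus strand) for S100b, chr1:172340960-172341209 (plus) for Kcnj10, chr15:8710808-8711057 (minus) for Slc1a3 and chr8:124569707-124569956 (minus) for Agt. Capitals mark the CCAAT box (CCAAT) and the TATA box (TATAAA), each searched on both strands, so that ATTGG and TTTATA are matches on the opposite strand.
S100b: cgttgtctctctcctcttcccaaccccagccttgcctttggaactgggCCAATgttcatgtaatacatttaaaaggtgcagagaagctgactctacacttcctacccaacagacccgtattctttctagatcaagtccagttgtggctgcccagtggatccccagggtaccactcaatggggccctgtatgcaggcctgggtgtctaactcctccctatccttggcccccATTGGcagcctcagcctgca
Kcnj10: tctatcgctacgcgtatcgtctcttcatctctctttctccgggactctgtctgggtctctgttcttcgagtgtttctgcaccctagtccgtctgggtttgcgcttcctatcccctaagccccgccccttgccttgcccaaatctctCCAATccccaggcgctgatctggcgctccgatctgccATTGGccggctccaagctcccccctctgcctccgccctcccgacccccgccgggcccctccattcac
Slc1a3: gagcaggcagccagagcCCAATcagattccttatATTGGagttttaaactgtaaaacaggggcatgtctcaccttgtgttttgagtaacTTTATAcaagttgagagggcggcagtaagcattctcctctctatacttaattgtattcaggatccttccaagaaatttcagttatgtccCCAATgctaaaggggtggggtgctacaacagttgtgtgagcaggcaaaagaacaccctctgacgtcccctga
Agt: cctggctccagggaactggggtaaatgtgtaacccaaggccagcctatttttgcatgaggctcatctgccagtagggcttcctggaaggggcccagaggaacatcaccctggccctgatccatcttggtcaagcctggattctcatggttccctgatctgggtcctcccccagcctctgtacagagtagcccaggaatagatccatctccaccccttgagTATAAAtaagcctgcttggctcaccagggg
Windows were found for 6 of the 7 members, all but Sox9. CCAAT occurred in 4 of the 6, at 2 places each in S100b, Kcnj10 and Aldh1l1 and at 3 places in Slc1a3, beside 33.8% of the 32851 windows of the table. It was not in the windows of Gja1 and Agt. TATAAA occurred in Slc1a3 and Agt, beside 12.4% of windows. The GC box GGGCGG was found in Aldh1l1, Slc1a3 and Kcnj10 (32.7% of windows), the STAT letters TTCNNNGAA in Slc1a3 and Agt (7.02%), the SOX core ACAAT in Slc1a3 (27.7%) and the nuclear factor I half-site TTGGCA in S100b (12.3%), where it overlaps a CCAAT match. These matches are a description of letters and not of binding.

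S100b encodes a calcium-binding protein of astrocytes that is also made by cells of the oligodendrocyte lineage, and lies on chromosome 10 from 76253836 to 76261319. It was at 612, 729 and 908 normalized counts in SOD1-G85R replicates 1, 2 and 3 and at 878, 1508 and 1398 in WT replicates 1, 2 and 3. The highest SOD1-G85R sample and the lowest WT sample overlapped, and the other 4 samples were separated by genotype. The means were 749 ± 149 in SOD1-G85R and 1262 ± 337 in WT (SD, n = 3 each), a ratio of 0.594. The fold from the limma fit on the log2 scale was 0.602, with a 95% interval of 0.372 to 0.976. By limma the log2 fold change was -0.73 (SE 0.29), with an unadjusted p of 0.0421 and an adjusted p of 0.285, and 104 of the 712 genes had a smaller p. When SOD1-G85R replicate 2 was left out it was -0.72 (SE 0.31, unadjusted p = 0.0460, adjusted p = 0.256), in a fit where 5.2% of the panel was lower at an unadjusted p of 0.05. Leaving out WT replicate 2, WT replicate 3 or SOD1-G85R replicate 1 moved the unadjusted limma p to 0.125, 0.126 and 0.117. S100a10, the other member of the S100 family measured and an A2 reactive marker, averaged 1905 ± 214 in SOD1-G85R and 1573.5 ± 170.4 in WT (SD, n = 3 each; log2 fold change 0.28, limma adjusted p = 0.535).

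Genes of oligodendrocytes, the myelin-forming cells, followed a similar order over the samples. By limma all 7 measured genes of the oligodendrocyte list had a lower mean in SOD1-G85R, with an unadjusted p under 0.05 in 6 (4.63% of the panel was lower at that p) and an adjusted p under 0.05 in 0, and a median log2 fold change of -1.01. Without SOD1-G85R replicate 2 the median was -1.03 and limma called 1 of the 7, beside 1.4% of the panel. It was Opalin, a myelin membrane protein gene (log2 fold change -1.71, limma adjusted p = 0.0264). Opalin was at 157, 162 and 214 in SOD1-G85R samples and at 505, 718 and 602 in WT samples, which did not overlap. With sample weights 2 of the 7 were called, beside 28 of the 712 genes tested. With median centring and SOD1-G85R replicate 2 left out 6 of the 7 were called, beside 70 of the 712. That last setting was added after seeing the data. Summed over the list, the SOD1-G85R samples held 26273 to 35035 normalized counts and the WT samples 50511 to 66425. The list was lowest in SOD1-G85R replicate 1 (a median of -1.27 against the WT mean on the log2 scale) and highest in WT replicate 2 (0.25), the same samples as for S100b. A list of neuronal genes was also lowest in SOD1-G85R replicate 1 (-0.64) and highest in WT replicate 2 (0.21). Of its 5 genes, 3 had a lower and 2 a higher mean in SOD1-G85R. By limma 2 of the 5 were lower at an unadjusted p under 0.05, beside 4.63% of the panel. The part of either list in the S100b values was not tested.

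Kcnj10 encodes the inwardly rectifying potassium channel Kir4.1, through which astrocytes take up potassium and which oligodendrocytes also carry, and lies on chromosome 1 from 172341210 to 172374085. It was at 1092, 2107 and 1555 in SOD1-G85R samples and at 1498, 2084 and 1992 in WT samples. The SOD1-G85R samples spanned the WT range, with 1 below it, 1 above it and 1 within it. The log2 fold change was -0.27 (95% interval -0.99 to 0.46, limma adjusted p = 0.684). Leaving out SOD1-G85R replicate 2 gave -0.50 (adjusted p = 0.394), and leaving out SOD1-G85R replicate 1 gave -0.02 (adjusted p = 0.973).

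Aldh1l1 encodes a folate-metabolising dehydrogenase widely used as an astrocyte marker, and lies on chromosome 6 from 90550768 to 90599171. It had the widest range of the 7, with 315, 1303 and 636 in SOD1-G85R samples and 397, 741 and 527 in WT samples. The highest SOD1-G85R sample was 4.13 times the lowest, against 1.87 times among WT samples. Its means were 752 ± 504 in SOD1-G85R and 555 ± 174 in WT (SD, n = 3 each). The log2 fold change was 0.25 (95% interval -1.06 to 1.56, limma adjusted p = 0.828) and turned to -0.26 without SOD1-G85R replicate 2 (adjusted p = 0.784). The genes with the most similar profile over the 6 samples were Nfkb1, a nuclear factor kappa B subunit, Rpl28, a ribosomal protein gene, and Cldn5, a tight junction gene of brain endothelium. Their root mean square differences from Aldh1l1 in centred log2 values were 0.12, 0.17 and 0.19. Like Aldh1l1, these 3 genes were highest in SOD1-G85R replicate 2 and lowest in SOD1-G85R replicate 1, Nfkb1 for example at 503 and 150.

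Slc1a3 encodes the glutamate transporter GLAST, which removes glutamate from the synaptic cleft and is also present in radial glia, and lies on chromosome 15 from 8634124 to 8710807. It was at 9795, 8895 and 9529 in SOD1-G85R samples and at 9427, 7385 and 12505 in WT samples. All 3 SOD1-G85R samples lay inside the WT range. The means were 9407 ± 462 in SOD1-G85R and 9772 ± 2578 in WT (SD, n = 3 each). The log2 fold change was -0.02, with a 95% interval of -0.61 to 0.56 (limma adjusted p = 0.963), which leaves room for a fold of 0.655 to 1.48.

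Gja1 encodes connexin 43, the main gap junction protein of astrocytes, and lies on chromosome 10 from 56377300 to 56390419. It was at 3804, 4065 and 3490 in SOD1-G85R samples and at 4446, 2851 and 5339 in WT samples. As for Slc1a3, the WT samples enclosed the SOD1-G85R samples. Its log2 fold change was -0.11 (95% interval -0.78 to 0.56, limma adjusted p = 0.855), and -0.16 without SOD1-G85R replicate 2. Gjb1, which encodes the oligodendrocyte and Schwann cell connexin 32, was the other connexin measured. It averaged 211 ± 76.2 in SOD1-G85R and 319 ± 92.9 in WT (SD, n = 3 each). The groups overlapped and the log2 fold change was -0.61 (limma adjusted p = 0.475).

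Sox9 encodes a transcription factor of glial fate that stays on in astrocytes and is also found in neural progenitors and ependyma, and lies on chromosome 11 from 112782210 to 112787757. It was at 677, 924 and 788 in SOD1-G85R samples and at 719, 576 and 988 in WT samples. The WT range again enclosed all SOD1-G85R samples. Its log2 fold change was 0.09 (95% interval -0.55 to 0.73, limma adjusted p = 0.875), and -0.02 without SOD1-G85R replicate 2. Of the list of genes of astrocyte fate and its signals, 4 were measured and 0 of the 4 reached an unadjusted p of 0.05 by limma. Sox4, a SOX factor of immature cells, averaged 717 ± 162 in SOD1-G85R and 484 ± 133 in WT, and Sox10, the oligodendrocyte-lineage factor, 270 ± 54.4 in SOD1-G85R and 332 ± 55.0 in WT (SD, n = 3 each). The Notch ligand gene Jag1 averaged 105 ± 21.9 in SOD1-G85R and 91.1 ± 10.99 in WT. Socs3, an inhibitor of STAT3 signalling, was at 34.1, 90.0 and 54.0 in SOD1-G85R samples and 13.5, 47.3 and 25.6 in WT samples, a log2 fold change of 1.08 (limma adjusted p = 0.391).

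Agt encodes angiotensinogen, the precursor of angiotensin peptides, made in brain mainly by astrocytes, and lies on chromosome 8 from 124556587 to 124569706. It was at 769, 634 and 678 in SOD1-G85R samples and at 604, 560 and 912 in WT samples. The means were 694 ± 69.1 in SOD1-G85R and 692 ± 192 in WT (SD, n = 3 each). All SOD1-G85R samples lay within the WT range. Between the genotypes the log2 fold change was 0.03 (95% interval -0.57 to 0.63, limma adjusted p = 0.957). Other genes of the renin-angiotensin list and of the list for potassium and water handling were not analysed here. Slc1a3 and Agt were each other's nearest profile among the genes tested, with a root mean square difference of 0.092 over the 6 samples, as seen after the values were examined.

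**Figure D3:**
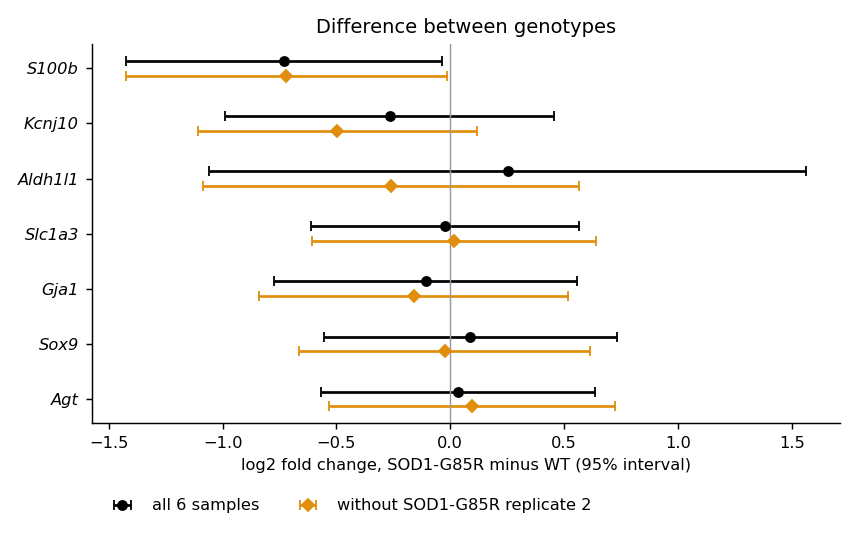
Log2 fold change of each member (SOD1-G85R minus WT) with its 95% interval from limma, for all 6 samples in black and without SOD1-G85R replicate 2 in orange. The interval of S100b lies below 0 in both fits (-1.43 to -0.04 with all samples), and those of the other 6 genes span 0.

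**Figure D4:**
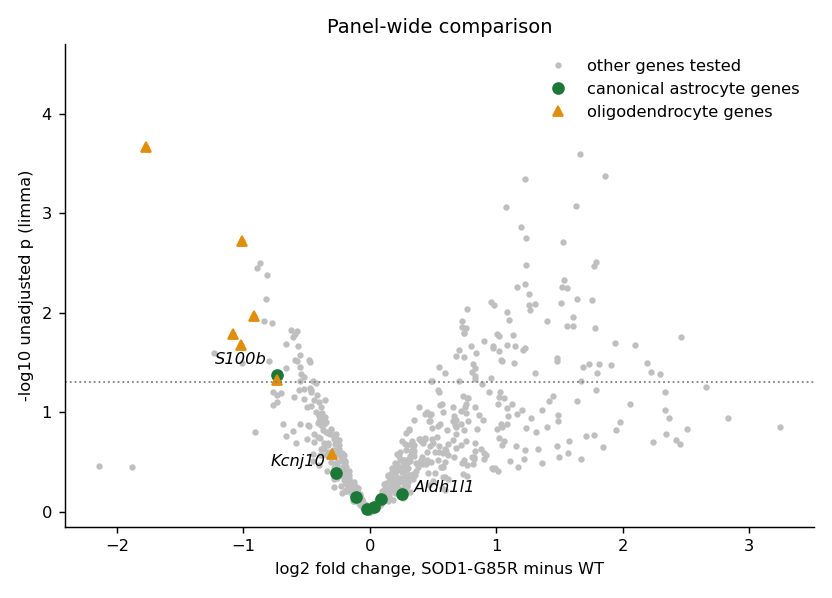
Log2 fold change (x axis) against the -log10 unadjusted limma p (y axis) for the 712 genes tested, with the 7 canonical astrocyte genes in green and 7 oligodendrocyte genes in orange. The dotted line marks an unadjusted p of 0.05. S100b (-0.73) lies beside the oligodendrocyte genes and the other 6 members lie near the foot of the plot.

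A wider list of astrocyte genes was measured at 9 genes, of which 4 had a higher and 5 a lower mean in SOD1-G85R, with a median log2 fold change of -0.04. Without SOD1-G85R replicate 2 the median was -0.21, with 3 higher and 6 lower. By limma 0 of the 9 had an unadjusted p under 0.05. Egfr, a growth factor receptor gene, was the only member of it whose groups did not overlap, beside 27.0% of the 712 genes tested. Egfr was at 265 ± 16.2 in SOD1-G85R and 228 ± 14.6 in WT (log2 fold change 0.22, limma adjusted p = 0.580). Mertk, a receptor through which astrocytes and microglia engulf debris and synapses, averaged 200 ± 62.1 in SOD1-G85R and 235 ± 18.8 in WT (SD, n = 3 each). Apoe, the lipid carrier apolipoprotein E, was at 6426, 13500 and 6325 in SOD1-G85R samples and at 7241, 8326 and 8388 in WT samples, so that a single SOD1-G85R sample was high and the other 2 were below every WT sample. F3, tissue factor, averaged 724 ± 177 in SOD1-G85R and 780 ± 125 in WT. The integrin genes Itga6 and Itga7 had log2 fold changes of 0.24 and 0.41, and Entpd2, an enzyme that breaks down extracellular ATP, had -0.04. Gdpd2, a phosphodiesterase gene, and Slc2a1, the glucose transporter GLUT1, had log2 fold changes of -0.10 and -0.19.

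Most genes of the pan-reactive, A1, A2 and wider astrocyte lists were at their highest in SOD1-G85R replicate 2. Most canonical genes were not, and nor were most of the genes tested. Pan-reactive genes are those switched on in reactive astrocytes of either kind, and A1 and A2 are names for astrocyte states after inflammation and ischaemia in mouse. In that sample 2 of the 7 canonical genes, Aldh1l1 and Kcnj10, exceeded all 5 other samples, against 327 of the 712 genes tested (45.9%), and Kcnj10 did so by 1.01 times. The other 5 members stayed within the range of the other samples. In the same sample 9 of 11 pan-reactive genes, 6 of 9 genes of the A1 set, 6 of 9 genes of the wider astrocyte list and 5 of 9 tested genes of the A2 set exceeded all others, the A2 share being near that of the panel. Of the pan-reactive genes counted, Lcn2 and Cxcl10 passed the filter on low values only through the SOD1-G85R samples, every WT sample being under 20. With the filter above 50, 6 pan-reactive genes remained, with a median log2 fold change between genotypes of 0.78. By limma 0 of these 6 had an unadjusted p under 0.05, against 2 of the 11. The differences between these lists were not tested. Relative to the mean of SOD1-G85R replicates 1 and 3 the median log2 difference was 0.16 over the canonical genes, 0.58 over the wider astrocyte list, 1.94 over the pan-reactive genes, 2.53 over the A1 genes and 0.54 over the A2 genes, with 0.33 over all genes tested. Aldh1l1 was 1.54 higher there, and the other canonical genes lay between -0.19 and 0.69.

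Vim, the intermediate filament vimentin of progenitors and reactive astrocytes, was at 483, 4820 and 1017 in SOD1-G85R samples and at 394, 902 and 604 in WT samples. C3, the complement component used as an A1 marker, was at 41.6, 1422 and 68.2 in SOD1-G85R samples and 23.7, 38.2 and 30.4 in WT samples. H2-T23, a non-classical class I histocompatibility gene, was at 36.2, 1031 and 71.0 in SOD1-G85R samples and 31.6, 39.2 and 36.0 in WT samples. For these 3 genes SOD1-G85R replicate 2 was the highest sample by a wide margin, but not every reactive gene was high there. Cd44, the hyaluronan receptor and the pan-reactive gene of smallest p, was at 53.3, 43.0 and 62.5 in SOD1-G85R samples and 30.9, 29.2 and 31.2 in WT samples (log2 fold change 0.77, limma adjusted p = 0.209). Its 3 SOD1-G85R samples all lay above WT, with SOD1-G85R replicate 2 the lowest of them. Against the mean of SOD1-G85R replicates 1 and 3, SOD1-G85R replicate 2 differed by -0.20, -0.05 and 0.05 on the log2 scale for the A1 genes Fbln5, Fkbp5 and Amigo2 and by -0.66 for the A2 gene Sphk1, which were picked out after their values were seen. Without that sample the median log2 fold change was -0.16 over the canonical genes and -0.21 over the wider astrocyte list. It was 0.33 over the pan-reactive genes, 0.39 over the A1 genes and 0.28 over the A2 genes, with 0.01 over all genes tested. In that fit limma called 10 of 712 genes (1.4%), 0 of them canonical astrocyte genes and 1 of them reactive, the A2 gene Ptx3 (log2 fold change 1.36, adjusted p = 0.0340). With sample weights it called 1 pan-reactive, 0 A1 and 1 A2 gene, beside 28 of the 712. With median centring and that sample left out, a setting added after seeing the data, it called 1, 0 and 2, beside 70 of the 712. With all 6 samples the groups did not overlap in 5 of 11 pan-reactive genes, beside 27.0% of the panel. They did not overlap in 3 of 9 A1 genes and 3 of 9 A2 genes. Markers of other cells were also high in SOD1-G85R replicate 2, with 4 of 5 microglial, 4 of 4 endothelial and 7 of 7 T and NK cell genes measured above all other samples, beside 45.9% of the panel tested. Summed over the microglial list, SOD1-G85R samples held 1644 to 3245 normalized counts and WT samples 2110 to 2935, and over the endothelial list SOD1-G85R samples held 1438 to 3050 and WT samples 1546 to 1990. The median log2 fold change over the microglial genes was -0.05 with all samples and -0.50 without SOD1-G85R replicate 2. Over the endothelial genes these medians were 0.13 and -0.17. Of the T and NK cell genes only Cd3d, a chain of the T cell receptor complex, passed the filter on low values, at 20.2, 114 and 28.4 in SOD1-G85R samples and 8.87, 13.4 and 12.8 in WT samples. Cd3d passed only through the SOD1-G85R samples, every WT sample being under 20. Gzma, a granule protease of cytotoxic cells, was at 10.7, 166 and 10.2 in SOD1-G85R samples and at 8.87, 13.4 and 9.59 in WT samples, and was named after its values were seen. The part of these cells in the values of SOD1-G85R replicate 2 was not tested.

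**Figure D5:**
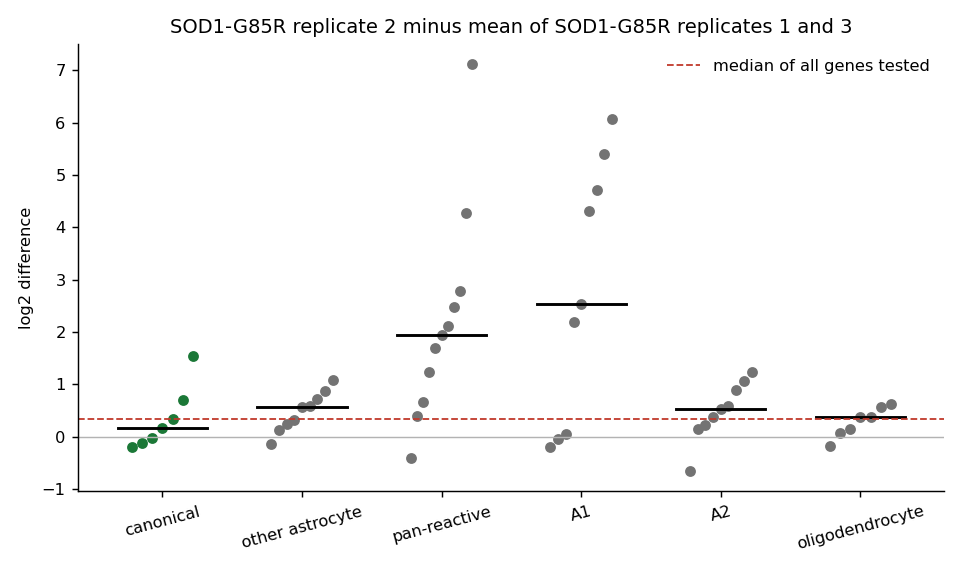
Log2 value in SOD1-G85R replicate 2 minus the mean of SOD1-G85R replicates 1 and 3, with a point per gene, a black bar at each list's median and a dashed line at the median of all genes tested (0.33). The canonical genes (green, median 0.16) lie between -0.19 and 0.69 apart from Aldh1l1 at 1.54, and A1 genes run from -0.20 to 6.08.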

How the data were processed

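Per the labels, RNA of 6 whole-brain homogenates was counted on a NanoString panel without labelling. The deposited values are a signal per gene and sample: in every sample 100% of distinct values above the lowest and below 150 were whole multiples, within 0.1, of a single step, as they would be had the authors multiplied counts by 1 factor per sample. The lowest value was shared by 10 to 59 genes and was read as a floor, so no count test was used. The scaling genes and the software are not stated in the labels.

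From these, log2(value + 1) was taken, and genes above 20 in at least 3 samples (712 of 770) entered a linear model per gene in limma 3.58.1 under R 4.3.3 (lmFit, eBayes, two-sided, no covariate, Benjamini-Hochberg over 712 genes, threshold 0.05, moderated 95% intervals). Other scalings, filters, pseudocounts, variance models, sample weights, a replicate block and leaving out samples (with the same 712 genes) were alternatives. The script was tested on made-up data with known answers. Counts of any pair of samples differed beyond counting noise, by a chi-square of at least 24.2 per degree of freedom. The members and gene lists were chosen with earlier results of these data known. Named genes were all members, the related astrocyte lists, the 3 nearest profiles to the member of widest range and, for other lists, the 3 of smallest p; some that this allows are left out. Uty, the nearest profiles to other members, Gzma, Lcn2, Cxcl10, Fbln5, Fkbp5, Amigo2 and Sphk1 fall outside this rule and were chosen after their values were seen. All 7 member symbols were current in RefSeq GRCm38.p6, whose upstream sequences were used.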

Additional observations from a re-analysis of the deposited data

How the results depend on the processing

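Under the 18 other settings run, 0 of the 7 members were called at an adjusted p of 0.05. S100b stayed lower in SOD1-G85R in all 18, with log2 fold changes of -0.97 to -0.58 and adjusted p of 0.144 to 0.5997, and Kcnj10 ran from -0.50 to -0.02. An unadjusted p under 0.05 was reached by 116 genes over the panel and 1 member. Of the panel 0 genes were called with all samples, 28 with sample weights, 0 to 10 when a sample was left out (10 without SOD1-G85R replicate 2) and 70 with median centring and that sample left out, a setting added after seeing the data. Members near 0 changed sign. With samples centred on their medians, which moved the median of all genes to -0.06 against 0.15 as deposited, Sox9 was -0.12 and Agt -0.18. After quantile normalization Slc1a3 was 0.15 and Agt -0.035, and with sample weights Sox9 was -0.075 and Agt -0.087. With median centring and SOD1-G85R replicate 2 left out Aldh1l1 was -0.21 and Slc1a3 0.068. Leaving out each sample gave -0.26 to 0.76 for Aldh1l1, -0.21 to 0.17 for Slc1a3, -0.37 to 0.086 for Gja1, -0.094 to 0.29 for Sox9 and -0.10 to 0.25 for Agt, and -0.18 to 0.17 for the median of the members. The sign turned for Aldh1l1 without SOD1-G85R replicate 2, for Slc1a3 without that sample or WT replicate 3, for Gja1 without WT replicate 3, for Sox9 without SOD1-G85R replicate 2 or WT replicate 2, and for Agt without WT replicate 1, WT replicate 2 or SOD1-G85R replicate 1. The cause of these sign changes was not tested. Quantile normalization put the higher share of the genes at an unadjusted limma p of 0.05 at 22 of 58, against 83 of 116 as deposited. With the deposited scaling and the filter above 50 it was 28 of 63, so this share depends on the filter as well as on the scaling.

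Same-numbered samples had correlations of deviations from the group means of 0.23, 0.088 and 0.0999, and differently numbered samples had -0.32 to 0.19. The main fit did not take the numbers to pair the samples, and these values do not settle whether they do. With the replicate block 0 genes and 0 members were called, and 162 genes had an unadjusted p under 0.05. There the log2 fold change of S100b was -0.73 (SE 0.18, limma unadjusted p = 0.0164, adjusted p = 0.152). Counting error of the members was 5.81% or less in every sample.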

Other observations

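A ratio inside a sample does not depend on how that sample was scaled. The log2 value of S100b minus the median of the other 6 members was -0.58, -1.18 and -0.29 in SOD1-G85R replicates 1, 2 and 3. In WT replicates 1, 2 and 3 it was -0.24, 0.28 and -0.01. The groups did not overlap, by a margin of less than 0.05 between SOD1-G85R replicate 3 and WT replicate 1. Of single genes, 27.0% of the 712 tested did not overlap between the groups. Taken against Slc1a3 alone, S100b did overlap. It was at 6.24, 8.19 and 9.52% of Slc1a3 in SOD1-G85R replicates 1, 2 and 3. In WT replicates 1, 2 and 3 it was at 9.31, 20.4 and 11.2%. Both ratios were chosen after the values were seen, and neither was tested.

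The genes nearest to S100b in profile over the 6 samples were the neuronal pentraxin gene Nptx1, the myelin-associated glycoprotein gene Mag and Gal3st1, which encodes the enzyme that makes myelin sulfatide, with root mean square differences of 0.12, 0.14 and 0.16 in centred log2 values. Mag was at 666, 914 and 1016 normalized counts in SOD1-G85R samples and at 1296, 1904 and 1691 in WT samples. For Kcnj10 the nearest was Sqstm1, the autophagy receptor gene p62, at 2486, 4491 and 3339 in SOD1-G85R samples and 3308, 4398 and 3919 in WT samples (0.065). For Sox9 it was Sall1, which encodes a zinc finger factor of microglia and neural progenitors, at 490, 624 and 582 in SOD1-G85R samples and 445, 409 and 741 in WT samples (0.093). These neighbours were looked up after the values were seen, and nothing about shared control follows from them.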
